A study of Mus musculus with 4 samples.

Results

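Solute carriers are membrane proteins that move small molecules and ions (sugars, amino acids, neurotransmitters, metals, bicarbonate, chloride) across the plasma membrane and the membranes of organelles, driven by the gradients of the substrate itself or of other ions. In brain they take up glutamate and glucose, pass lactate between cells, load synaptic vesicles and set the chloride and pH of neurons. Their genes carry the prefix Slc and a family number. Some of these genes also make circular RNAs (circRNAs), closed molecules in which the end of a later exon is joined back to the start of an earlier one, and the count of reads across that back-splice junction measures them.

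The circRNAs described here have both ends exactly on exon boundaries of a mouse protein-coding gene whose symbol begins with Slc and a number, in GENCODE M21 on the GRCm38 build. The Slc8a sodium-calcium exchangers were left out. This rule gave 198 circRNAs from 75 host genes, or 0.826% of the 23980 circRNAs in the deposited table. The comparison set below is the 19740 circRNAs, of 4805 hosts, with both ends on exons of any protein-coding gene, and it holds the Slc circRNAs too. Of 368 annotated Slc genes outside Slc8a, 20.4% hosted at least 1 circRNA, beside 21.9% of 21924 protein-coding genes.

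RNA was sequenced after removal of ribosomal RNA from mouse brain. For 3 libraries the middle cerebral artery of the mice had been closed for good with a filament (MCAO, a stroke model) and tissue was taken at 3 h. These are the part of the infarct core toward the frontal lobe (frontal core), the part toward the occipital lobe (occipital core) and the penumbra, the threatened tissue around the core. The control library is sham cortex matched in position to core and penumbra. The RNA of 6 mice was mixed for each MCAO library; the sources used here do not give their strain, sex and age, nor how many sham mice there were or when they were sampled. Each group is 1 library, so every difference below is between libraries, not between conditions, and no value has a replicate error.

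The libraries held 121393 (frontal core), 83090 (occipital core), 96349 (penumbra) and 106558 (sham) back-splice counts. Levels are given as CPM, a count scaled to the circRNA total of its library, and 3 counts, the floor used for a library at 0, equal 24.7 to 36.1 CPM. Neuronal marker genes held 3064 to 3653 CPM of circRNA with 7 of 9 markers making circles. Markers of striatal neurons held 354 CPM in frontal core, 301 in occipital core, 176 in penumbra and 206 in sham, with Drd1, Drd2 and Ppp1r1b at 0. Astrocyte markers held 122 to 208 CPM through 3 of 7 genes, with Aqp4, Gja1, Gfap and Slc1a3 at 0. Oligodendrocyte markers held 24.7 CPM in frontal core, 108 in occipital core, 41.5 in penumbra and 103 in sham through 2 of 7 genes, with Mbp, Mog, Mobp and Mag among those at 0. No circRNA came from the 6 microglial markers, and 1 of 6 endothelial markers, Pecam1, made 1. The part of such differences in tissue makeup in the values below was not tested, and in bulk tissue fewer cells of a type and less RNA per cell cannot be told apart.

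The junctions of the 6 most counted Slc circRNAs of different hosts are printed here because these are the sequences the reads had to cross. They are read from GENCODE M21 transcripts in the direction of transcription, with the end of the last exon on the left and the start of the first exon on the right, and the 5 bases on each side of the joint are in capitals.
Slc44a1, exons 2 to 3, chr4:53481464-53491530, plus strand: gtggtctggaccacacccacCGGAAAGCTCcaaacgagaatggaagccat
Slc7a8, exons 2 to 3, chr14:54758439-54759745, minus strand: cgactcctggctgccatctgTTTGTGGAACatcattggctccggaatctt
Slc2a13, exons 2 to 3, chr15:91497393-91516494, minus strand: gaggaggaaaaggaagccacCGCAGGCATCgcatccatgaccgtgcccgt
Slc35f5, exons 5 to 10, chr1:125568547-125579327, plus strand: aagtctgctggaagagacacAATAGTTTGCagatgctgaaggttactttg
Slc30a7, exons 3 to 8, chr3:115978644-115993039, minus strand: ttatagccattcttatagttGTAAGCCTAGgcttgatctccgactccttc
Slc38a1, exons 2 to 4, chr15:96609856-96624169, minus strand: gatcctcctcTTTCTGGGTCtcaggcatct
The most counted of them, from Slc44a1, is short enough to show whole. Its 233 bases run from the start of exon 2 to the end of exon 3, the capitals mark the 5 bases at each end that meet in the junction, and all of it is coding sequence.
Slc44a1 circle: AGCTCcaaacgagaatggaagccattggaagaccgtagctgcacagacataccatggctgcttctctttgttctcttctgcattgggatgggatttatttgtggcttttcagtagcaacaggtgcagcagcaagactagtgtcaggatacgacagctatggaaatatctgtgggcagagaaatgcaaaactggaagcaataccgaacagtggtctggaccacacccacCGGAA

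The Slc circRNAs took about the same small share of the circRNA count in every library. They held 667 counts in frontal core, or 0.549% (95% Clopper-Pearson interval 0.509 to 0.593). In occipital core they held 459, or 0.552% (0.503 to 0.605). The penumbra had 508, or 0.527% (0.482 to 0.575), and sham 580, or 0.544% (0.501 to 0.59). All 4 intervals overlap; these and all other intervals cover counting error only, since reads copied by PCR and not marked by molecule are not independent. Between 134 and 147 of the 198 circRNAs had a count in a given library, and between 61 and 67 of the 75 hosts.

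Most of these circRNAs were rare. Their median was 5 counts over the 4 libraries, as for all protein-coding circRNAs, and 63 of them (31.8%, beside 30.3% of all) reached 10. A count in all 4 libraries was found for 64 (32.3%, beside 32.5%), and 10 were seen in 1 library only. The 5 leading circRNAs held 25.9% of the 2214 Slc counts and the 10 leading ones 35.8%.

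**Figure D1:**
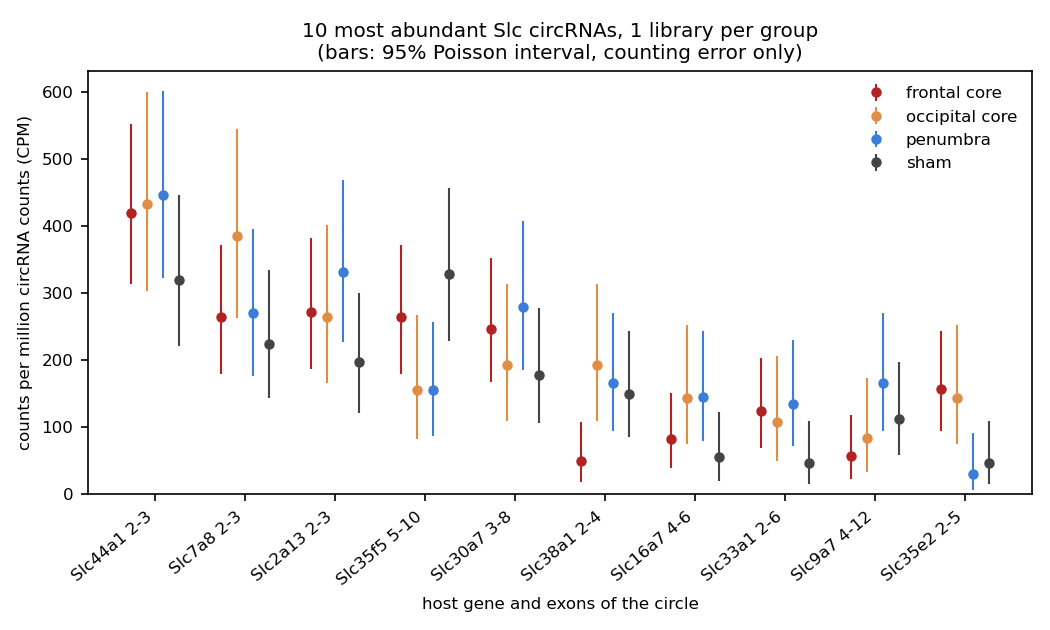
Level of the 10 most counted Slc circRNAs in each library, in CPM, with bars for the 95% Poisson interval. Slc44a1 leads in the 3 MCAO libraries with 420 to 446 CPM and Slc35f5 in sham with 328 beside 319, the bars of Slc38a1 sit lowest in frontal core (6 counts), and those of Slc35e2 sit higher in both core libraries (19 and 12 counts) than in penumbra and sham (3 and 5).

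The leading circRNA came from Slc44a1, which encodes a choline carrier. Its exon 2 to 3 circle had 51 counts in frontal core, 36 in occipital core, 43 in penumbra and 34 in sham, or 420, 433, 446 and 319 CPM. Sham was the lowest of the 4, and no pair was called. A longer circle of the same gene, exons 2 to 4 (chr4:53481464-53517681), starts at the same exon and had 9, 3, 4 and 19 counts in the same order. Sham was the highest here. Its junction differs from the first only on the left side, where the end of exon 4 replaces the end of exon 3.
Slc44a1, exons 2 to 4: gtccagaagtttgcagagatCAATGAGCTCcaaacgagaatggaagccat
Of the reads on these 2 junctions, the longer circle held 15% in frontal core (95% Wilson interval 8.1 to 26.1), 7.69% in occipital core (2.65 to 20.3), 8.51% in penumbra (3.36 to 19.9) and 35.8% in sham (24.3 to 49.3). The sham interval lies above those of occipital core and penumbra and overlaps that of frontal core. This share does not depend on the library totals, but it was computed after the counts were seen, so no test is given. Over all 9 circles the gene summed to 66, 43, 51 and 64 counts, and the CPM ratio of frontal core to sham was 0.905 (0.632 to 1.30).

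Among 14 hosts with at least 2 circles of 10 or more counts, the 2 leading circles shared an end in 8. The less counted circle took its largest share in sham in 6 of these hosts, in frontal core for Slc10a7 and in occipital core for Slc30a7. These hosts share the same sham library, and the tally was not made over all protein-coding hosts. Some differences were small: Slc9a7 had 47.8% in sham and 46.2% in frontal core. Slc30a9 had 53.3% in sham and 50% in both occipital core and penumbra. Several rest on few reads: Slc41a2 had 2 to 11 on the pair and Slc30a9 2 to 15. The alternative circle of Slc16a7, a monocarboxylate carrier of neurons, was 1 of the 6. Its exon 2 to 6 circle held 57.1% of the 2 junctions in sham (8 of 14 reads, 32.6 to 78.6), beside 16.7% (4.7 to 44.8) in frontal core, 20% (7.05 to 45.2) in occipital core and 17.6% (6.19 to 41) in penumbra. All 4 intervals overlap. For Slc33a1, the acetyl-CoA carrier of the endoplasmic reticulum, the shorter circle held 16.7% in frontal core, 43.8% in occipital core, 18.8% in penumbra and 50% in sham. The exon 6 to 8 circle of Slc30a7, a zinc carrier of the Golgi, held 18.9%, 36%, 20.6% and 29.6% in the same order. The intervals of both genes overlap in all 4 libraries.

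Carriers of sugars and amino acids gave the next circRNAs. Slc7a8 encodes an exchanger of neutral amino acids, and its exon 2 to 3 circle of 357 bases had 32 counts in frontal core, 32 in occipital core, 26 in penumbra and 24 in sham. It held 97.4% of the counts of its host, so it is nearly the only circle of the gene. Slc2a13, the proton-coupled carrier of myo-inositol, led with an exon 2 to 3 circle of 369 bases that had 33, 22, 32 and 21 counts in frontal core, occipital core, penumbra and sham. A second Slc2a13 circle, exons 4 to 7 (chr15:91321571-91412217), had 11, 2, 4 and 0 counts in that order. With sham set to the floor of 3 counts, frontal core was 3.22-fold above sham for this circle. From the observed counts of 11 and 0, the lower 95% limit of the ratio was 2.20. The Benjamini-Hochberg adjusted p was 0.0679 by Fisher's exact test, the smallest of any Slc circRNA in the 6 pairs. It did not pass the threshold of 0.05.

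Slc38a1, a sodium-coupled glutamine carrier, made a single circle. Its exons 2 to 4, 406 bases that include the start codon, had 6 counts in frontal core and 16 in each of the other 3 libraries. The level in frontal core was the lowest against all others: the frontal core to occipital core ratio was 0.257 (0.0823 to 0.691) and the frontal core to sham ratio 0.329 (0.105 to 0.886). Neither passed, with Benjamini-Hochberg adjusted p of 0.162 and 0.215 by Fisher's exact test. Slc43a2, another neutral amino acid carrier, had 1, 6, 0 and 9 counts on exons 3 to 5 (chr11:75543158-75545830). Its frontal core to sham ratio was 0.0975 with a wide interval of 0.00223 to 0.704, and an adjusted p of 0.154 by the same exact test.

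Carriers of the endoplasmic reticulum and Golgi were led by Slc35f5, of a family best known for nucleotide sugar carriers. Its exon 5 to 10 circle of 571 bases had 32 counts in frontal core, 13 in occipital core, 15 in penumbra and 35 in sham. Frontal core and sham lay above the other 2 libraries, with ratios to sham of 0.476 (0.231 to 0.923) in occipital core and 0.474 (0.241 to 0.891) in penumbra. The adjusted p were 0.273 and 0.307 by Fisher's exact test, so neither was called. The exon 2 to 5 circle of Slc35e2 (chr4:155609839-155612737), of the same family, had 19, 12, 3 and 5 counts in frontal core, occipital core, penumbra and sham. It was high in both core libraries, 3.34-fold (1.20 to 11.4) and 3.08-fold (1.01 to 11.2) the sham level, and the penumbra to frontal core ratio was 0.199 (0.0377 to 0.676). None passed, with adjusted p of 0.192, 0.308 and 0.112 by Fisher's exact test.

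Slc33a1 exons 2 to 6 (chr3:63943222-63954004) had 15 counts in frontal core, 9 in occipital core, 13 in penumbra and 5 in sham. Sham was the lowest, and the interval of each ratio to sham includes 1. The zinc carrier Slc30a7 had 30, 16, 27 and 19 counts on its exon 3 to 8 circle of 666 bases. It ranked within the first 5 Slc circRNAs in total, and its penumbra to sham ratio of 1.57 (0.842 to 2.99) was not called.

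Ion exchangers made more circles of lower count. Slc9a7, a sodium-proton exchanger of the trans-Golgi network, made 6 circles that summed to 35, 17, 27 and 31 counts in frontal core, occipital core, penumbra and sham. Its leading circle, exons 4 to 12 (chrX:20158815-20188920), had 7, 7, 16 and 12, while the exon 6 to 12 circle (chrX:20158815-20166113) had 9, 1, 1 and 3. The 2 circles end at the same exon and differ in the library where they were highest. Slc9a9, an exchanger of endosomes, had 1, 2, 1 and 8 counts on exons 3 to 4 (chr9:94711344-94712971), highest in sham.

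The bicarbonate carriers Slc4a4 and Slc4a10 had the most circles, 12 and 11, each of few counts. Slc4a4, the sodium-bicarbonate cotransporter best known in astrocytes, summed to 26, 7, 15 and 7 counts in frontal core, occipital core, penumbra and sham, and its leading circle, exons 7 to 16, held only 14.5% of them. The frontal core to sham ratio of the sum was 3.26 (1.38 to 8.90), with an adjusted p of 0.126 by Fisher's exact test over host genes. Slc4a10, a bicarbonate carrier of neurons, summed to 18, 7, 12 and 12, with 20.4% on its leading circle of exons 13 to 25. Both had their most counts in frontal core, with no call.

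The cation-chloride cotransporters set the chloride of neurons. Slc12a5, the neuronal potassium-chloride cotransporter, had 6, 8, 7 and 6 counts in frontal core, occipital core, penumbra and sham on exons 2 to 3 (chr2:164973687-164974579), and no pair was called. Slc12a2, the sodium-potassium-chloride cotransporter that loads cells with chloride, summed to 4, 1, 1 and 5 counts over 2 circles.

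Carriers of glutamate, lactate and calcium ranged from 3 counts over the 4 libraries to the 90 of Slc16a7. Slc1a2, the main glutamate carrier of astrocytes, summed to 12, 5, 12 and 7 counts in frontal core, occipital core, penumbra and sham over 3 circles, led by exons 2 to 6 (6, 2, 6 and 6). Slc24a2, a potassium-dependent sodium-calcium exchanger of neurons, summed to 9, 17, 14 and 12 over 6 circles. Its circle of exons 3 to 7 (chr4:87028246-87076157) had 4, 3, 8 and 4, highest in penumbra. Slc16a7 exons 4 to 6 (chr10:125294595-125302081) had 10, 12, 14 and 6, and was 2.58-fold (0.932 to 8.19) higher in penumbra than in sham. Slc16a1, the monocarboxylate carrier of glia and endothelium, summed to 3, 3, 1 and 4. Slc30a3, which loads zinc into synaptic vesicles, had 0, 0, 1 and 2, and the mitochondrial sodium-calcium exchanger Slc8b1 had 1, 0, 2 and 0. No circRNA with both ends on exon boundaries came from Slc1a3, Slc2a1, Slc2a3 or Slc17a7. These are a glial glutamate carrier, glucose carriers of endothelium and neurons, and a vesicular glutamate carrier. Slc17a6, another vesicular glutamate carrier, made 1 circle with 4, 0, 1 and 2 counts.

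Among the remaining leading hosts, Slc25a26, the mitochondrial carrier of S-adenosylmethionine, summed to 22, 9, 9 and 16 counts in frontal core, occipital core, penumbra and sham. Slc41a2, a magnesium carrier, made 7 circles with 16, 4, 11 and 14. Slc17a5, the lysosomal sialic acid carrier, had 8, 2, 2 and 2 on exons 2 to 8 (chr9:78557457-78578707), highest in frontal core. The zinc carrier Slc39a11 had 9, 0, 0 and 2 on exons 2 to 4 (chr11:113559511-113591932), again highest in frontal core, where it was 3.95-fold (0.818 to 37.6) the sham level. Slc25a16, a mitochondrial carrier, had 5, 3, 8 and 8 on exons 7 to 8 (chr10:62941042-62942719). Slc45a4 made 1 circle from exon 2 alone (chr15:73605442-73606076) with 4, 9, 3 and 8 counts, higher in occipital core and sham than in the other 2.

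**Figure D2:**
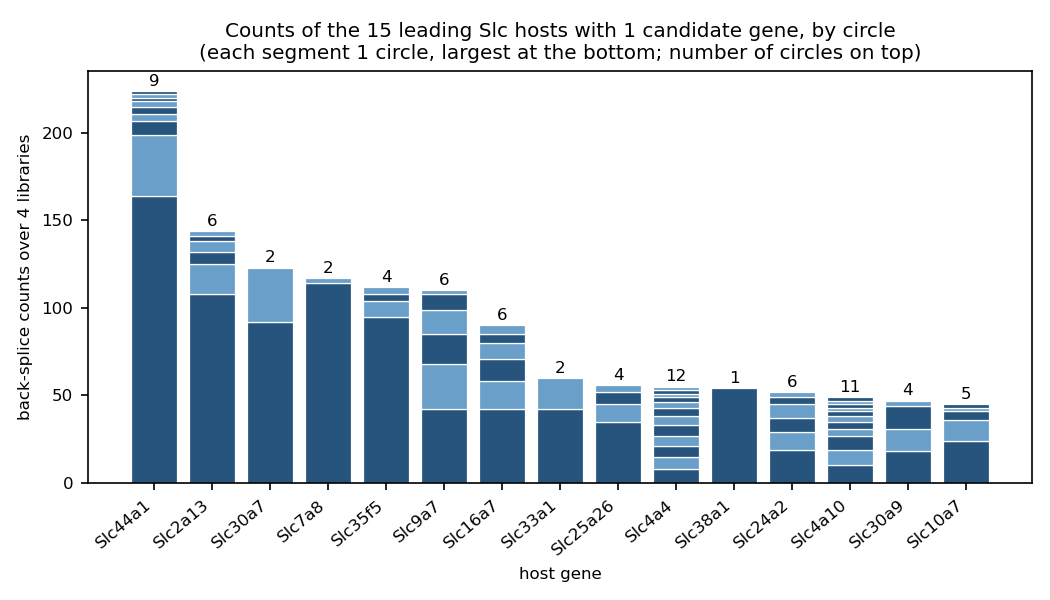
Back-splice counts over the 4 libraries for the 15 Slc hosts with the most counts whose circles fit no other protein-coding gene, each segment 1 circle and the number of circles on top. Slc7a8 and Slc38a1 rest on a single main circle, while the 55 counts of Slc4a4 are spread over 12.

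Hosts were grouped by family number, and the groups are named for substrates or sites of the families, which not every member shares. The bile acid, fatty acid and choline group (293 counts, 16 circles) and the metal ion carriers (287 counts, 23 circles) held the most. In the first of these, 224 counts were of the choline carrier Slc44a1, and no Slc27 gene made a circle. Next came the carriers of the endoplasmic reticulum and Golgi (260 counts, 15 circles) and the amino acid carriers (255 counts, 17 circles). The group of bicarbonate and anion carriers had the most circles, 33, but only 136 counts. Of these, 4 circles and 16 counts were of Slc4a1ap, an adaptor protein placed there by its symbol. Metal ion carriers had 799 CPM in frontal core (95% Poisson interval 648 to 975), 578 in occipital core (426 to 766), 695 in penumbra (539 to 883) and 704 in sham (554 to 882). Amino acid carriers were at 511, 842, 540 and 666 CPM in that order. Their occipital core interval of 657 to 1064 lies just above that of frontal core, 392 to 655. This gap was picked out after the values of all groups were seen, and groups were not tested. Slc7a8 (264 CPM in frontal core, 409 in occipital core), Slc38a1 (49.4 and 193) and Slc43a2 (24.7 and 96.3) differed most. Slc38a9, Slc38a7 and Slc7a14 were higher in frontal core. Sugar carriers, mostly Slc2a13, were at 404, 409, 467 and 282 CPM, lowest in sham. Sodium-proton exchangers were at 428, 265, 311 and 450, highest in frontal core and sham. The Slc1 glutamate and neutral amino acid carriers (60.2 to 135 CPM), the Slc6 family (28.2 to 132 CPM) and the vesicular group (113 to 125 CPM) were low in every library. No circle came from the nucleoside carriers. Of the Slc6 counts over the 4 libraries, Slc6a17 had 10, Slc6a8 7, Slc6a15 3 and the GABA carrier Slc6a11 2. Of the 49 counts of the vesicular group, 29 were of the lysosomal carrier Slc17a5.

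**Figure D3:**
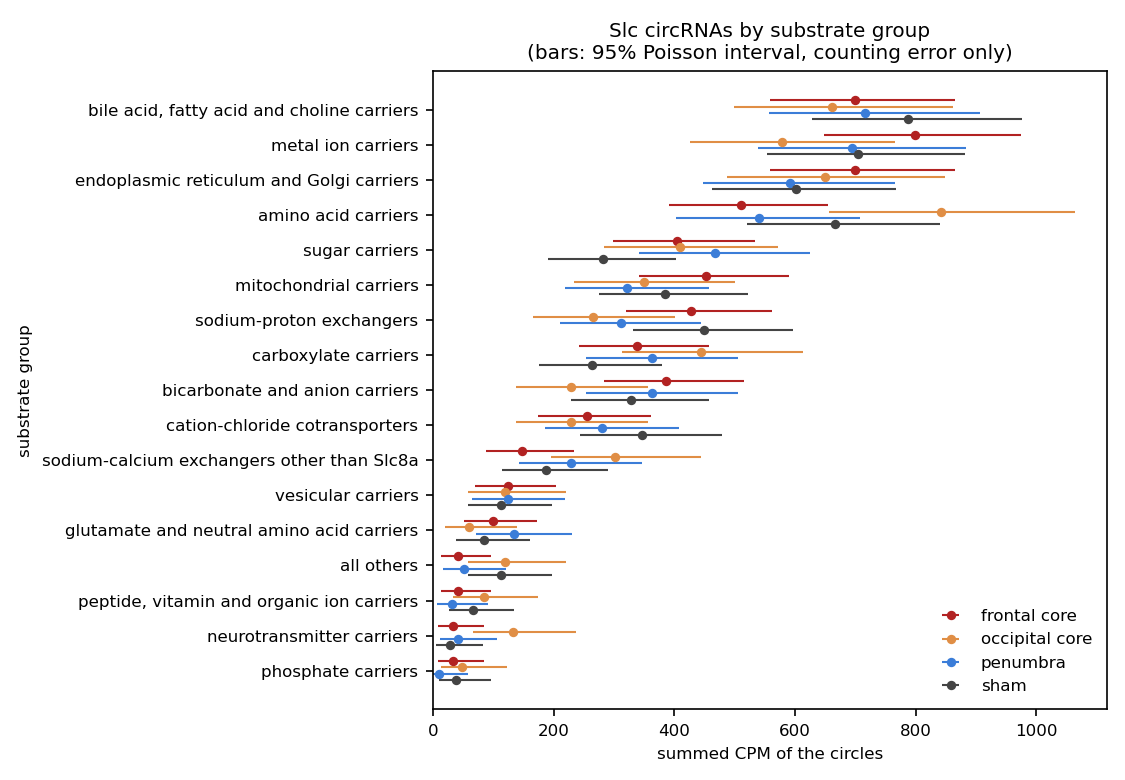
Summed CPM of the Slc circRNAs by substrate group in each library, with bars for the 95% Poisson interval. Groups were set by family number, so not every host carries the named substrate. The bicarbonate and anion group holds the adaptor Slc4a1ap. The bars overlap between libraries in nearly every group. The bar of the amino acid carriers of occipital core (842 CPM, from 657) begins just above the end of that of frontal core (511 CPM, to 655).

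For the comparison of libraries, each circRNA with 10 or more counts over a pair was tested by Fisher's exact test (two-sided) against the rest of the 2 libraries, with Benjamini-Hochberg adjustment over all circRNAs tested, and called at an adjusted p under 0.05 with a CPM ratio of at least 2. None of the Slc circRNAs was called in any of the 6 pairs. In frontal core against sham 33 were tested and 0 called, where 0.747% of all 4152 tested were called; 5 had an unadjusted p under 0.05 by Fisher's exact test and 3 by edgeR's exact test. In occipital core against sham 26 were tested and 0 called (background 0.467%), with 4 and 1 at an unadjusted p under 0.05 by those exact tests. The penumbra against sham had 24 tested and 0 called (background 0.0538%), with 2 and 1 by the same exact tests. For shares this small, 0 calls among 20 to 33 circRNAs is near the background.

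The pairs within MCAO also gave 0 calls. Penumbra against frontal core had 31 tested and 0 called (background 0.934%), with 4 at an unadjusted p under 0.05 by Fisher's exact test and 2 by edgeR's exact test. Penumbra against occipital core had 20 tested and 0 called (background 0.0606%), with 1 by each exact test. Frontal core against occipital core had 26 tested and 0 called (background 0.344%), with 3 and 2 by those exact tests. Unadjusted p under 0.05 by Fisher's exact test were found for 15.2%, 15.4% and 8.33% of the Slc circRNAs against sham (frontal core, occipital core, penumbra), beside 14.2%, 12.6% and 11.3% of all circRNAs. In the pairs within MCAO, in the order above, the shares were 12.9%, 5% and 11.5%, beside 12.8%, 7.03% and 11.8% of all circRNAs. With both core libraries taken as 2 samples of 1 group, 5423 circRNAs, 49 of them Slc, were also compared with sham by edgeR's quasi-likelihood test. Sham is 1 library there, and the spread is that between 2 different pieces of core. No result is drawn from that test.

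The Slc circRNAs lay on both sides of 1 in each pair with sham. In frontal core against sham 17 Slc circRNAs had a ratio above 1 and 16 below, with a median log2 ratio of 0.075, beside 0.0343 over all circRNAs. In occipital core 12 were above and 14 below (median -0.176, all -0.0561), and in penumbra 15 above and 9 below (median 0.145, all 0.012). Over the 5 or 6 with 30 or more counts the medians were 0.397 in frontal core, 0.392 in occipital core, where the sign turned, and 0.372 in penumbra. These were nearly the same circles each time, set against the same sham library. The median over all circRNAs at that count is not given here. The 3 lowest ratios to sham in penumbra were Slc44a1 exons 2 to 4 (0.233, interval 0.0576 to 0.701), the longer Slc16a7 circle and Slc45a4 (each 0.415). The 3 highest were Slc33a1 exons 2 to 6 (2.88), Slc16a7 exons 4 to 6 (2.58) and Slc24a2 exons 3 to 7 (2.21). The comparisons to sham share that library, so a low or high sham count moves all 3 at once, as for the exon 2 to 4 circle of Slc44a1 with its 19 sham counts.

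**Figure D4:**
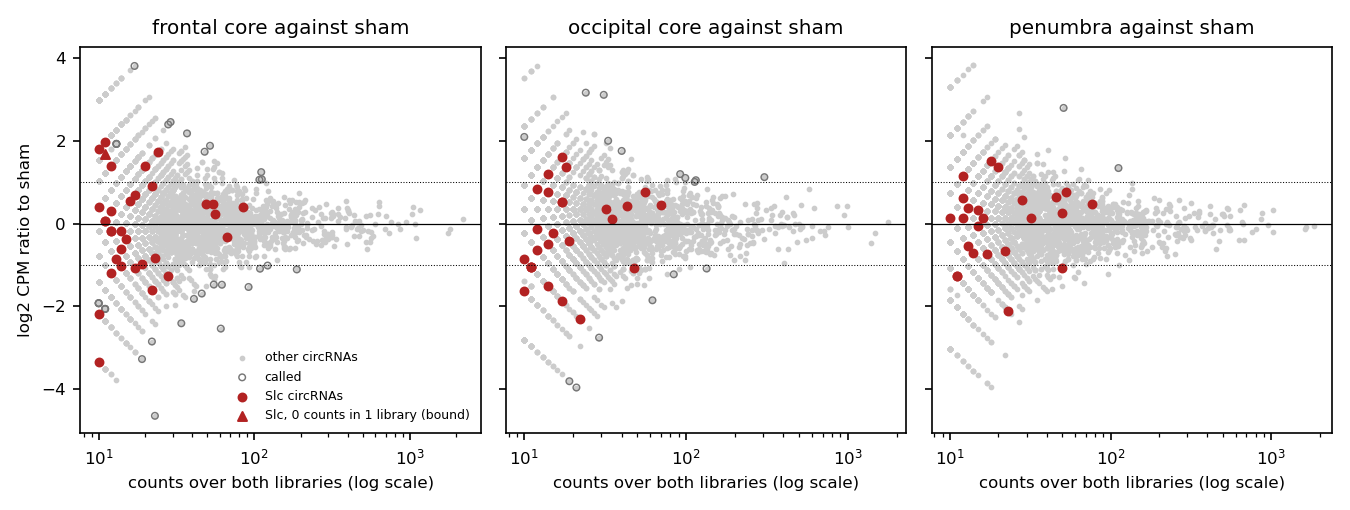
Log2 CPM ratio to sham against the counts over both libraries (log scale) for each circRNA with 10 or more counts, with Slc circRNAs in red, called circRNAs ringed and dotted lines at a 2-fold difference. The Slc circRNAs lie on both sides of 0, and none is ringed in the 3 panels.

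Summed over the circles of a gene, 1 Slc host passed. Slc4a1ap encodes an adaptor protein named for its binding to an Slc4a1 product, not a carrier, and belongs here by its symbol only. Its 4 circles summed to 0 counts in frontal core, 3 in occipital core, 2 in penumbra and 11 in sham. All 3 MCAO libraries lay below sham. With frontal core set to the floor of 3 counts it was 4.18-fold lower, and the 95% limit from the observed counts was 2.86-fold. The Benjamini-Hochberg adjusted p was 0.0351 by Fisher's exact test over host genes. It was 1 of 34 Slc hosts tested, beside 0.539% of all 2411 hosts called in that pair. The call was lost with edgeR's exact test, and with at least 30 counts the host could not be tested.

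No Slc host was called in the other 5 pairs. In occipital core against sham 29 were tested (background 1.17%), and in penumbra against sham 30 (background 0.0868%). In penumbra against frontal core 29 were tested (background 0.547%), in penumbra against occipital core 28 (background 0.092%) and in frontal core against occipital core 31 (background 0.392%). An unadjusted p under 0.05 by Fisher's exact test was found for 4 (13.8%), 4 (13.3%), 3 (10.3%), 1 (3.57%) and 5 (16.1%) of them in that order, beside 13%, 11.1%, 13.8%, 7.18% and 13.5% of all hosts. By edgeR's exact test the numbers were 0, 4, 2, 1 and 2. In frontal core against sham, the pair with the call, 7 Slc hosts (20.6%) had an unadjusted p under 0.05 by Fisher's exact test, beside 13.7% of all hosts, and 5 by edgeR's exact test.

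The circles of Slc genes began more often at exon 2 than circRNAs at large. Of the 192 that fit a single transcript, 69 (35.9%) started at exon 2, beside 24.2% of all protein-coding circRNAs and 16.4% of those from voltage-gated and leak channel genes. By counts, 48.2% of Slc reads were on circles starting at exon 2, beside 37.8% and 17.1%. The most counted Slc circles, of Slc44a1, Slc7a8 and Slc2a13 (164, 114 and 108 of 2214 counts), all start at exon 2. The share by counts without them was not computed. With each transcript counted once per circle, the transcripts of Slc circles had a median of 14 exons, all protein-coding ones 19 and the channels 31. The share at exon 2 falls in these 3 sets as this median rises. The part of exon number in the difference was not tested. Circles starting at exon 10 or later made up 10.9% of the Slc set and 26.1% of all. No Slc circle used exon 1 or the last exon.

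**Figure D5:**
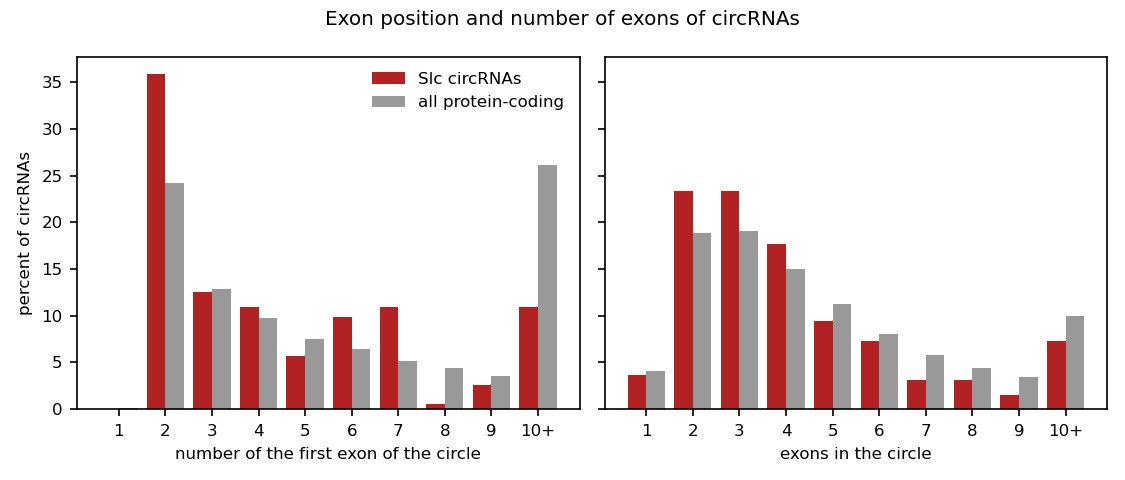
Percent of circRNAs by the number of their first exon (left) and by their number of exons (right), for Slc circRNAs and all protein-coding circRNAs. Exon 2 holds 35.9% of the Slc circRNAs and 24.2% of all, where the class of exon 10 or later is higher at 26.1%, and circles of 2, 3 and 4 exons are the most common.

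Slc circles had a median of 3 exons and 478 bases, beside 4 exons and 543 bases for all, and their median GC content was 48.1%, beside 47.6%. Circles of a single exon numbered 7 (3.65%, beside 4.09%) and held 3.4% of the Slc counts, beside 8.54% of all counts. Coding sequence alone made up 158 of them (82.3%, beside 85.2%). The start codon lay in 30 (15.6%, beside 12.4%) and the stop codon in 3. Of those made of coding sequence alone, 46 (29.1%) had a length divisible by 3, beside 39.2% of all. The introns before and after the circle had medians of 9166 and 6988 bases, beside 8375 and 6727.

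The circles of 1 gene often reused an end. Of the 198, 129 (65.2%) shared a start or an end with another circle of the same host, beside 74.8% of all protein-coding circRNAs and 84% of those from channels. The 4 leading hosts by count drew 73.2% (Slc44a1), 75% (Slc2a13), 74.8% (Slc30a7) and 97.4% (Slc7a8) of their reads from 1 circle. A single circle was all that 32 hosts made (42.7%, beside 37.4%). Where a host made several, its leading circle held a median of 60% of the counts, beside 54.5%.

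Other transporters and channels were set beside the Slc genes. The 10 Slc8a circRNAs alone held 0.63%, 0.668%, 0.553% and 0.511% of the counts in frontal core, occipital core, penumbra and sham, about as much as the 198 Slc circRNAs together. Genes of ion-pumping and lipid-flipping ATPases (Atp1, Atp2, Atp8) had 65 circles, Abc carriers 43, Slco carriers 4 and voltage-gated and leak channels 287. Of the ATPase circRNAs, 1 of 10 tested was called higher in penumbra than in sham (background 0.0538%). Of the channel circRNAs, 1 of 70 tested was called lower in frontal core (background 0.747%) and 1 of 58 higher in occipital core (background 0.467%) than in sham. These are single calls, and those lists had none in the other pairs. The Slc8a list had 5 tested in each pair and the Abc list 3 to 5, with 0 called, and no Slco circRNA had enough counts to be tested.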

How the data were processed

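The count table deposited by the authors gives whole-number back-splice read counts for 23980 circRNAs in 4 libraries, with no normalization; every circRNA has at least 2 counts in sum. The deposited FPKM table equals count over genomic span over library total (largest relative difference 5.11e-15) and was not used further. TopHat2 2.0.10, Bowtie and mm9 are listed, per the submitters' processing notes; which program called the circRNAs, and with which annotation, is not given in the sources used here. The deposited coordinates fit GRCm38: 89.1% of starts lay on GENCODE M21 exon boundaries, 0.192% when moved by 1 base. Exons are numbered along the transcript with the most exons that holds both ends; 6 circRNAs fit no single transcript. Strand is that of the host.

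CPM are counts over the library's circRNA total. Ratios carry 95% exact conditional intervals, levels 95% Poisson intervals and shares of a library 95% Clopper-Pearson intervals. A library at 0 is set to 3 counts for the ratio only, and the interval uses the observed counts. Fisher's exact test was tested on simulated data. Tools were Python 3.11.15, scipy 1.17.1, statsmodels 0.14.6, R 4.3.3, edgeR 4.0.16 and DESeq2 1.42.0. Alternatives were minimum counts of 1 and 30, TMM and DESeq2 scaling, edgeR's exact test with an assumed coefficient of variation of 0.2, removal of a GC trend, other denominators and fewer members.

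Named circRNAs are the 10 with most counts, any called, and the 3 highest and 3 lowest ratios of each pair; named hosts are the 10 with most counts, the 5 with most circles, any called, and 18 carriers of brain. The members and lists were chosen with earlier results of these data known. The shares of circles with a common end were added after the counts were seen. Results on some of the named genes are not reported here.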

Additional observations from a re-analysis of the deposited data

How the results depend on the processing

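The 0 calls of Slc circRNAs held in all 6 pairs under every alternative run: no minimum count, 30 counts, TMM, DESeq2 size factors, edgeR's exact test and removal of the GC trend. The 1 Slc host called in frontal core against sham stayed with TMM factors, and the number was 0 with 30 or more counts, where Slc4a1ap with 11 counts was not tested, and 0 with edgeR's exact test, which assumes a spread between libraries. Over circRNAs with both ends on exons of a protein-coding gene, the Slc share was 0.611% in frontal core, 0.616% in occipital core, 0.587% in penumbra and 0.606% in sham, since that denominator is smaller. Without the leading Slc44a1 circle the frontal core share was 0.507%. The median log2 ratios to sham of -0.176 (occipital core), 0.075 (frontal core) and 0.145 (penumbra) were 0.392, 0.397 and 0.372 over Slc circRNAs with 30 or more counts. No median over all circRNAs at that count is given beside them, and the cause was not tested. TMM factors moved log2 ratios by up to 0.125. Depth limits all of this: only 5 or 6 Slc circRNAs reached 30 counts in a pair. No paired analysis was possible because each group has 1 library.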

Other observations

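Some Slc hosts outside the rule for named genes had sums that differed between libraries before adjustment, and are given here after their values were seen. Slc38a10, an amino acid carrier family member, summed to 8 counts in frontal core, 6 in occipital core, 0 in penumbra and 10 in sham. Slc16a14, of the monocarboxylate carrier family, summed to 13, 6, 6 and 2 in that order, and the zinc carrier Slc30a5 to 14, 5, 9 and 3. Both were highest in frontal core and lowest in sham. Slc30a9 summed to 14, 7, 6 and 20, highest in sham. By Fisher's exact test with Benjamini-Hochberg adjustment over host genes, the adjusted p were 0.143 for Slc38a10 in penumbra against sham, 0.169 for Slc16a14 and 0.267 for Slc30a5 in frontal core against sham, and 0.306 for Slc30a9 in penumbra against sham, so none passed.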
